A study of Homo sapiens with 9 samples.

Results

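The genes described here code for the subunits of oxidative phosphorylation in SKBR3 cells, a human line from a breast cancer that carries extra copies of ERBB2, after transfection with siRNAs against PVRL4. They were the rows of the deposited table whose symbol starts with NDUFA, NDUFB, NDUFC, NDUFS, NDUFV, UQCR, COX4, COX5, COX6, COX7, COX8 or ATP5, or is SDHA, SDHB, SDHC or SDHD, without the NDUFAF assembly factors. The names matched 89 rows, and 78 of them reached a mean of 1 RPM (the reads of a gene scaled to a fixed library total) over the 9 libraries. These 78 members stood among 20812 rows in the table and 11158 genes that reached that mean. By complex they divided into 35 for complex I, 4 for complex II, 9 for complex III, 13 for complex IV and 17 for complex V.

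Oxidative phosphorylation makes most of the ATP of a respiring cell in the inner mitochondrial membrane. Complex I (NADH dehydrogenase) and complex II (succinate dehydrogenase) pass electrons to ubiquinone, complex III (cytochrome bc1) hands them to cytochrome c, and complex IV (cytochrome c oxidase) reduces oxygen. Complexes I, III and IV pump protons, and complex V (ATP synthase) uses the resulting gradient to make ATP. Each complex but the second also holds subunits encoded by mitochondrial DNA, which lie outside the name rule. Several complex IV subunits exist as isoforms of muscle, lung or testis. Tumour cells that rely strongly on glycolysis still carry these complexes.

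The study had 3 groups of 3 libraries, all from SKBR3 cells given 10 nM of siRNA with a lipid reagent and labelled as 48 h of treatment. The control group received a non-targeting siRNA, and the others received PVRL4 siRNA #1 (siRNA 1) or PVRL4 siRNA #2 (siRNA 2). Control and PVRL4 siRNAs came from different suppliers, all groups share the same cell line, and the labels do not name separate cultures, so the p-values reflect only the spread of these libraries, which may be technical. PVRL4 codes for nectin-4, an adhesion protein of the cell surface. Its level was 9.93, 7.86 and 11.6 RPM in control replicates 1 to 3, against 5.99, 4.36 and 4.67 RPM with siRNA 1 and 3.39, 2.91 and 2.58 RPM with siRNA 2. Both siRNA groups lay below every control library. In limma's test the adjusted p was 0.0601 for siRNA 1 and 0.00224 for siRNA 2 against control.

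Libraries held 10017130 to 10707777 reads, and 1 read was worth 0.0934 to 0.0998 RPM. Of 8 luminal epithelial markers, 7 were above 1 RPM and CDH1 was not; their summed level was 9908 to 10671 RPM in controls, 9735 to 10165 RPM with siRNA 1 and 8369 to 8901 RPM with siRNA 2. Markers of leukocytes summed to at most 0.374 RPM, and those of male germ cells were at 0 in every library. Markers of endothelium (4.29 to 10.3 RPM), fibroblasts (3.77 to 6.54 RPM) and striated muscle (0.859 to 3.0 RPM) were low throughout. Replicate 3 of siRNA 2 stood apart from the other libraries for the members, and the main member results that rest on it are given with and without it. Fits of the siRNA contrasts with the replicate number as a block, with other scaling, or by edgeR or DESeq2 were run only with it.

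Many promoters of nuclear genes for oxidative phosphorylation are known to carry sites of NRF1, of the ETS factor GABP and of YY1. RefSeq windows (GRCh38.p14) from 250 bases before to 50 bases after the annotated start were held for 62 of the 78 members. The NRF1 core CGCATGCG, searched on both strands, occurred in 10 of the 62 windows (16.1%), against 4.24% of the windows of all tested genes and 2.19% of all windows of that length. The ETS core CCGGAAGT occurred in 8 (12.9%), against 9.71% of tested genes and 4.44% of all windows. The YY1 core AAGATGGCG also occurred in 8 (12.9%), against 4.37% and 1.85%. At least 1 of the 3 words was present in 23 of the 62 windows, a count not taken over all tested genes. A match is only a run of letters and does not show binding. Stretches are shown from 170 bases before to 30 bases after the start for the member with the lowest p in the siRNA 1 contrast, NDUFB11, the 2 members with the lowest p in the siRNA 2 contrast, ATP5I and NDUFA8, and NDUFB4, which codes for another membrane-arm subunit of complex I. Capitals mark the NRF1 word.
NDUFB11, chrX:47144673-47144872 (minus strand): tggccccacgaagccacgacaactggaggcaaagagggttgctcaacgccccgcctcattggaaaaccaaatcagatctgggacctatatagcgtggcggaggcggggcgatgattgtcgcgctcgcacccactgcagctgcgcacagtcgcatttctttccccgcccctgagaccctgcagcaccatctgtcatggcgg
ATP5I, chr4:674247-674446 (minus strand): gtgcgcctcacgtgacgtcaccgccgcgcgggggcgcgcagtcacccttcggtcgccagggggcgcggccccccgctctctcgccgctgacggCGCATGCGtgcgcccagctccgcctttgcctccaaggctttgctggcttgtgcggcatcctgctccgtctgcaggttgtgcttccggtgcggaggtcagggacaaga
NDUFA8, chr9:122159750-122159949 (minus strand): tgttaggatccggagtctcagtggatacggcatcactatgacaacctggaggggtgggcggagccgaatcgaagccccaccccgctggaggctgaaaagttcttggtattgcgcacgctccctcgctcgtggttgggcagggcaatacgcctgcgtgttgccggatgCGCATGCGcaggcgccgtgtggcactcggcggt
NDUFB4, chr3:120596166-120596365 (plus strand): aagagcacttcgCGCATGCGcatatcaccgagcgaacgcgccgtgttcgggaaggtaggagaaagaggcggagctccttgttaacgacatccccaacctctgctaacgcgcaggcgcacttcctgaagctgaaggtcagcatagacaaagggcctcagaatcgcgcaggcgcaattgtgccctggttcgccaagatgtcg
The NRF1 word starts at position -77 in ATP5I, -3 in NDUFA8 and -158 in NDUFB4, counted from the annotated start. None of the 3 words was found in the NDUFB11 window. The windows of NDUFB1, NDUFB2, NDUFB6, NDUFB7, NDUFB8 and NDUFB10 held none of them either. NDUFB4 was thus the only NDUFB member with a window that held a match.

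The members were among the more abundant transcripts of these cells. Their median control level was 143 RPM, against 25.9 RPM over all tested genes; 71 of 78 lay above that value and 50 reached 100 RPM. Together they took 2.08 to 2.45% of all reads. Each gene was read at a single amplicon, so levels of different genes also depend on their amplicons and are ordered here only as RPM, not per length. The highest control means were 2435 ± 79.1 RPM (SD, n = 3) for ATP5J2, the f subunit of ATP synthase, and 1912 ± 121 RPM for NDUFB9, an accessory subunit of complex I. ATP5L (1248 ± 30.2 RPM), ATP5B, the catalytic beta subunit (1178 ± 115 RPM), and COX6B1 (1046 ± 93.7 RPM) followed, and the control range of ATP5B overlapped those of both ATP5L and COX6B1. The median coefficient of variation over the members was 7.07% in the control group.

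**Figure D1:**
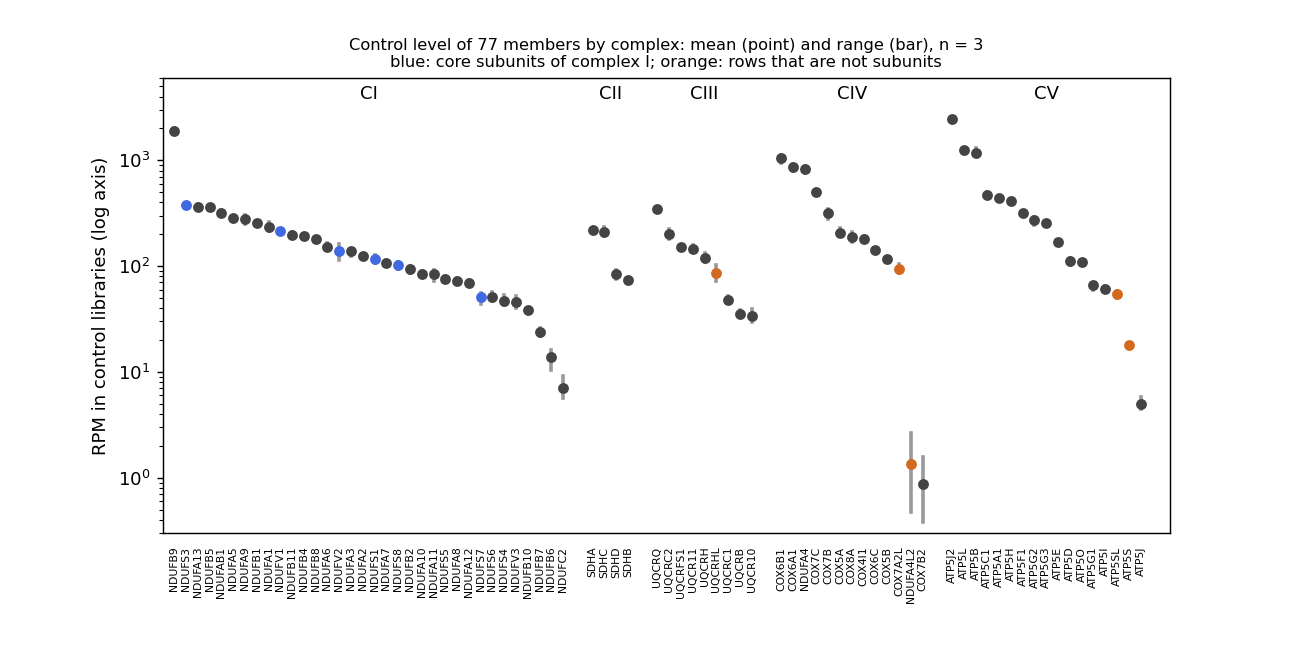
Control level of 77 of the 78 members in RPM on a log axis, ordered within complexes I to V (CI to CV); points are means and bars the range of the 3 control libraries. Blue points are the core subunits of complex I and orange points are rows that are not subunits; NDUFA4L2 and COX7B2, both near 1 RPM, lie far below the rest.

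Within complex I, the core subunits, which include those with the flavin and the iron-sulphur clusters, ranged in the control mean from 51.6 ± 6.54 RPM for NDUFS7 to 380 ± 21.5 RPM for NDUFS3. Among accessory subunits the range was wider, from 7.08 ± 1.80 RPM for NDUFC2 to NDUFB9. The 4 subunits of succinate dehydrogenase formed a higher pair, SDHA (220 ± 1.64 RPM) and SDHC (210.5 ± 21.2 RPM), and a lower pair, SDHD (83.8 ± 7.81 RPM) and SDHB (73.1 ± 3.94 RPM). Within the higher pair the ranges overlapped, and within the lower pair SDHD was above SDHB in each control library. In complex III the small subunit UQCRQ was highest (344 ± 18.0 RPM), and UQCR10 lowest (34.0 ± 4.95 RPM). UQCRH had 119 ± 12.6 RPM and UQCRHL 85.2 ± 14.9 RPM, but these are near copies and reads could be split between them, so both values are uncertain.

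In complex IV the widely expressed and the tissue isoforms of COX4, COX6A and COX6B lay far apart, while both COX7A rows were under 1 RPM. The widely expressed forms COX4I1 (180 ± 9.94 RPM), COX6A1 (862 ± 60.0 RPM) and COX6B1 were read in every library, while COX4I2, an isoform known from lung, and COX6A2, an isoform of muscle, were at 0 in all 9 libraries, which allows up to 0.299 RPM at the shallowest library (3 reads, counting error only). COX6B2, the testis isoform, and COX7A1, the muscle isoform, did not exceed 0.194 and 0.097 RPM in any library. Counting error does not cover an amplicon that reads its gene poorly. COX7B2, a testis form, averaged 0.874 ± 0.625 RPM in controls. The widely expressed COX7A2 was read at only 0.484 ± 0.203 RPM in controls, and complex I subunits NDUFB3 (0.510 ± 0.233 RPM) and NDUFC1 (0.833 ± 0.191 RPM) were also under 1 RPM. These 3 rows failed the 1 RPM filter with 8 others, namely ATP5EP2, ATP5L2, COX4I2, COX6A2, COX6B2, COX7A1, NDUFB2-AS1 and UQCRBP1. Just inside the filter were COX7B2 (mean over the 9 libraries 1.29 RPM) and NDUFA4L2 (1.62 RPM), and just outside were NDUFB3 (0.65 RPM) and COX7A2 (0.64 RPM). The name rule also took in ATP5S, ATP5SL, COX7A2L, NDUFA4L2 and UQCRHL, which are not subunits.

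With siRNA 1, 1 of the 78 members passed the test against control. NDUFB11, an accessory subunit in the membrane arm of complex I encoded on the X chromosome, was lower. In bulk libraries fewer cells with a transcript and less of it per cell cannot be told apart. NDUFB11 was read at 209, 193 and 183 RPM in control replicates 1 to 3, at 128, 135 and 138 RPM with siRNA 1, and at 178, 180 and 203 RPM with siRNA 2. Every siRNA 1 library lay below every library of the other groups, whereas siRNA 2 and control overlapped. The group means were 195 ± 13.4, 134 ± 5.02 and 187 ± 14.1 RPM (SD, n = 3). Against control the log2 change with siRNA 1 was -0.54 (SE 0.096, 95% interval -0.75 to -0.33), a fold of 0.687, with a limma adjusted p of 0.0125. With the replicate number as a block the adjusted p was 0.00183. The call was lost without control replicate 1 (log2 change -0.49, adjusted p 0.108), control replicate 2 (-0.55, 0.0558) or siRNA 1 replicate 1 (-0.51, 0.0662), and in limma without a trend (adjusted p 0.0863).

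**Figure D2:**
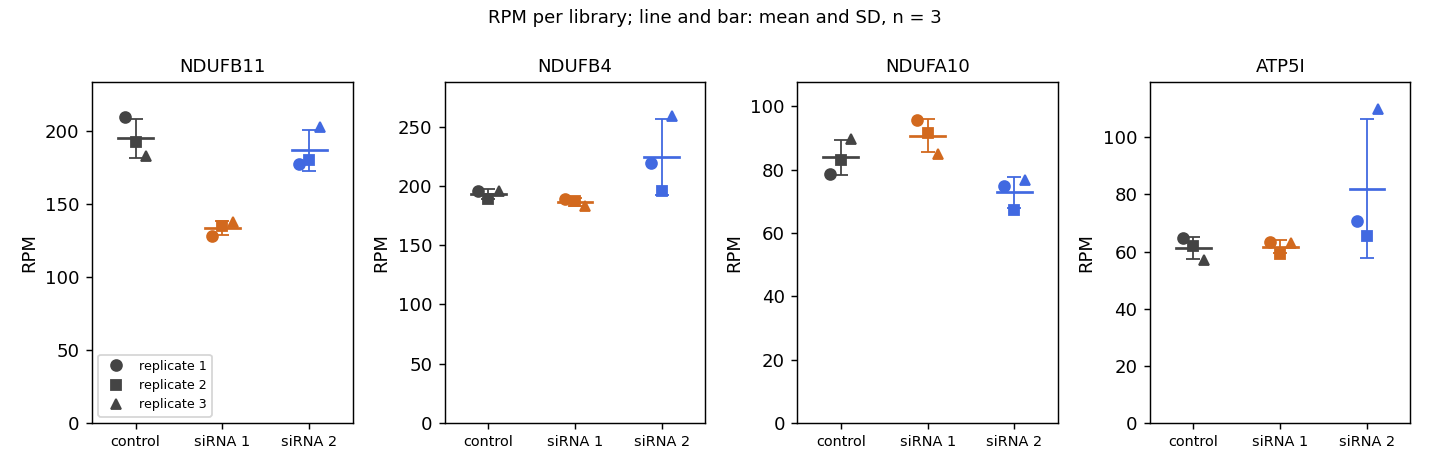
RPM of NDUFB11, NDUFB4, NDUFA10 and ATP5I in each library, by group; markers give the replicate number, and lines and bars the mean and SD of 3 libraries. The 3 siRNA 1 libraries of NDUFB11 lie at 128 to 138 RPM, below all others, and replicate 3 of siRNA 2 lies at 110 RPM for ATP5I.

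The libraries of siRNA 1 also differed from the rest in genes of the type I interferon response, of which 30 of 34 rose by limma (median log2 change 3.56) and 0 fell. With siRNA 2 limma called 0 of the 34 against control, as did edgeR and DESeq2, and 0 had an unadjusted p below 0.05. The summed level of these genes was 417 to 447 RPM in controls, 9273, 1662 and 4502 RPM in siRNA 1 replicates 1 to 3, and 436 to 613 RPM with siRNA 2. NDUFB11 stood at 128, 135 and 138 RPM in the same siRNA 1 libraries, a spread too small to order them by. The part of the interferon response in the lower NDUFB11 level was not tested. RBM10, which lies beside NDUFB11 on the X chromosome and was looked at after its values were seen, had 33.4 ± 3.29, 32.0 ± 2.57 and 37.9 ± 5.60 RPM in control, siRNA 1 and siRNA 2, with overlapping groups.

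Across all members, 1 of 78 passed the adjusted threshold of 0.05 with siRNA 1 (1.28%, against 0.851% of all tested genes). At an unadjusted p below 0.05 there were 4 (5.13%, against 6.04%), of which 3 had higher and 1 lower values. All siRNA 1 libraries were above all controls for 4 members (background 6.4%) and below for 6 (background 5.59%). These shares lie near those of all genes. They come from a fit that leaves out the pairing by replicate number. With the replicate as a block, 8 members had an unadjusted limma p below 0.05. No share over all genes was taken at that cut, so the 8 cannot be read as a result about the members. In that fit 1 member passed the adjusted test, as did 1.85% of all genes. The median log2 change was 0.033 over the members and 0.014 over all genes, and 54 of 78 changes (69.2%) were above 0, against 53.9% of all genes. With TMM or median-of-ratios scaling the median over the members was 0.018 or 0.016, with 48 or 46 changes above 0. Over all genes it was then -3.1e-05 or -0.0014.

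After NDUFB11, the smallest p in the siRNA 1 contrast belonged to small accessory subunits of complex I, none of which passed the adjusted test. NDUFB7 was at 22.8, 26.2 and 21.7 RPM in control and at 30.3, 33.0 and 27.2 RPM with siRNA 1, a log2 change of 0.34 ± 0.14 (SE) with a limma adjusted p of 0.601. NDUFA12 had a log2 change of 0.24 ± 0.11, and its groups did not overlap either. For NDUFA6 (0.25 ± 0.11), NDUFA11 (0.23 ± 0.11, and 0.13 without control replicate 1) and ATP5D, the delta subunit of the ATP synthase stalk (0.20 ± 0.10), the groups overlapped. These SE and overlaps leave out the pairing by replicate number. With the replicate as a block the limma adjusted p was 0.152 for NDUFA6, 0.235 for NDUFB7, 0.245 for NDUFA12 and 0.338 for NDUFA11. On the lower side, UQCRB of complex III had 33.9, 38.4 and 33.7 RPM in control and 27.3, 26.5 and 31.6 RPM with siRNA 1 (log2 change -0.30 ± 0.16, limma adjusted p 0.938). COX6A1 (-0.17 ± 0.099), the flavin-binding core subunit NDUFV1 (-0.14 ± 0.095) and SDHC, a membrane anchor of complex II (-0.14 ± 0.10, and -0.067 without control replicate 2), had still smaller differences.

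With siRNA 2, the siRNA that gave the lower PVRL4 level, limma called 0 of 78 members against control, where 0.681% of all tested genes passed. edgeR and DESeq2 on the recovered reads called 0 as well. At an unadjusted p below 0.05 there were 2 members (2.56%, against 9.42% of all genes), ATP5I and NDUFA8. Without replicate 3 of siRNA 2 there were 3, all lower (background 8.28%). With the replicate number as a block, 15 members had an unadjusted limma p below 0.05. No share over all genes was taken at that cut, so the 15 cannot be read as a result about the members. In that fit 0 members passed the adjusted test, which 3.41% of all genes passed. All siRNA 2 libraries were above all controls for 5 members (6.41%, background 4.99%) and below for 3 (3.85%, background 8.95%). Without replicate 3 these counts were 6 (background 10.8%) and 8 (background 12.4%). The median log2 change was 0.092, against -0.022 over all genes, and 59 of 78 changes (75.6%) were above 0, against 45.4% of all genes. Without replicate 3 of siRNA 2 the median was 0.024, against 0.0049 over all genes, and 48 changes (61.5%) were above 0, against 51.0% of all genes. The summed luminal markers were also lower in all siRNA 2 libraries than in any control. Taken singly, KRT8, KRT19 and ESRP1 were lower without overlap, while KRT18, EPCAM, ERBB2 and GRHL2 overlapped the controls. Their part in these values was not tested.

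ATP5I, the e subunit of ATP synthase that takes part in its dimers, was at 64.7, 61.9 and 57.2 RPM in control and 70.7, 65.3 and 110 RPM with siRNA 2. The groups did not overlap, by a small margin, and replicate 3 was far above the other libraries. Its log2 change of 0.38 ± 0.16 (SE; limma adjusted p 0.447) was 0.15 without that library. NDUFA8, a complex I subunit of the intermembrane space, was at 67.9, 72.3 and 77.6 RPM in control and 83.0, 74.7 and 125 RPM with siRNA 2. Its change of 0.34 ± 0.15 was 0.12 without replicate 3. NDUFA4, long listed with complex I and now placed in complex IV, was at 838, 760 and 877 RPM in control and at 814, 955 and 1333 RPM with siRNA 2. Its change of 0.30 ± 0.14 was 0.098 without replicate 3. NDUFA9 (0.21 ± 0.10, and 0.13 without replicate 3) and NDUFB4 (0.21 ± 0.10, and 0.098 without replicate 3) were the next on the higher side.

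On the lower side of the siRNA 2 contrast, NDUFA10 was at 78.7, 83.2 and 89.8 RPM in control and 74.8, 67.3 and 76.6 RPM with siRNA 2, without overlap (log2 change -0.20 ± 0.10, SE; limma adjusted p 0.589). ATP5SL, a complex I assembly factor despite its name, had a change of -0.19 ± 0.11 and ATP5S, a coupling factor, -0.14 ± 0.13 (-0.083 without replicate 3). SDHD had -0.15 ± 0.15, a value set by replicate 2 of siRNA 2 (57.1 RPM, against 84.3 and 88.3 RPM in the others): without it the change was 0.045, and without replicate 3 it was -0.26. None of these passed the test.

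**Figure D3:**
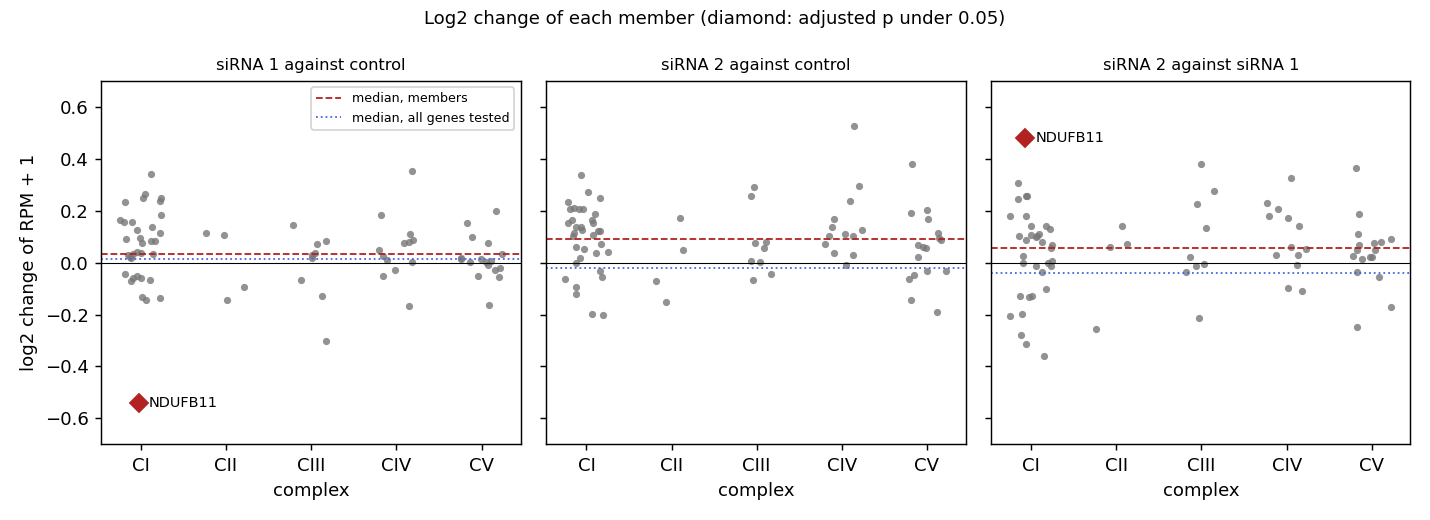
Log2 change of RPM + 1 of each member, by complex (CI to CV), in the 3 contrasts; diamonds have a limma adjusted p under 0.05, the dashed line is the median of the members and the dotted line that of all tested genes. NDUFB11 is the only diamond, at -0.54 with siRNA 1 against control and 0.48 with siRNA 2 against siRNA 1.

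Replicate 3 of siRNA 2 held more reads of these genes than any other library. The summed level of the 78 members was 20881, 20977 and 21153 RPM in control replicates 1 to 3, with 21306, 20754 and 21220 RPM for siRNA 1 and 21573, 21326 and 24506 RPM for siRNA 2. The other 8 libraries thus lay within a narrow range. For 44 of 78 members (56.4%) this library was the highest of the 9, against 12.5% of all tested genes, and for 5 it was the lowest, against 24.9% of all genes. Compared with the mean of replicates 1 and 2, the median log2 difference was 0.18 over the members, with 60 of 78 above 0, and -0.07 over all genes, with 40.2% above 0. The 44 and the 60 include NDUFA4L2 and COX7B2, which passed the 1 RPM filter only through the replicate 3 libraries. Their means in the other 6 libraries were 0.771 and 0.954 RPM.

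In complex IV all 13 members were higher in replicate 3 than in the mean of the others, with a median difference of 0.26. NDUFA4L2 and COX7B2 are among the 13 and, given how they passed the filter, add no support. Its summed level was 5738 RPM there and 4351 to 4599 RPM in the other libraries. In complex I 26 of 35 members were higher (median 0.21), in complex II 4 of 4 (0.14), in complex III 7 of 9 (0.12), and in complex V 10 of 17 (0.089). COX6C was at 129 and 130 RPM in replicates 1 and 2 and at 212 RPM in replicate 3. UQCRQ of complex III was at 278, 307 and 483 RPM, and NDUFS5 of complex I at 82.3, 73.0 and 127 RPM. Not every member took this direction: the core subunit NDUFS8 was at 113, 103 and 71.2 RPM, and UQCRC1, a core protein of complex III, at 50.1, 54.0 and 40.8 RPM. Genes outside the name rule that belong to the same machinery had a median deviation of 0.27 from their 9-library mean in this library (7 genes). That value was 0.033 for 17 regulators of mitochondrial biogenesis, -0.015 for 44 assembly factors and -0.0053 for 73 genes of the mitochondrial ribosome. For 18 genes of the TCA cycle it was -0.053, for 18 genes of glycolysis -0.11 and for all tested genes -0.07. For 25 genes of mitochondrial import it was 0.12, but also 0.096 in siRNA 2 replicate 1 and 0.094 in siRNA 1 replicate 1. For 34 genes of the type I interferon response it was -0.68, against -1.19 and -1.17 in siRNA 2 replicates 1 and 2. The TMM scaling factor of this library, 0.954, was the lowest of the 9. What sets the library apart was not tested.

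**Figure D4:**
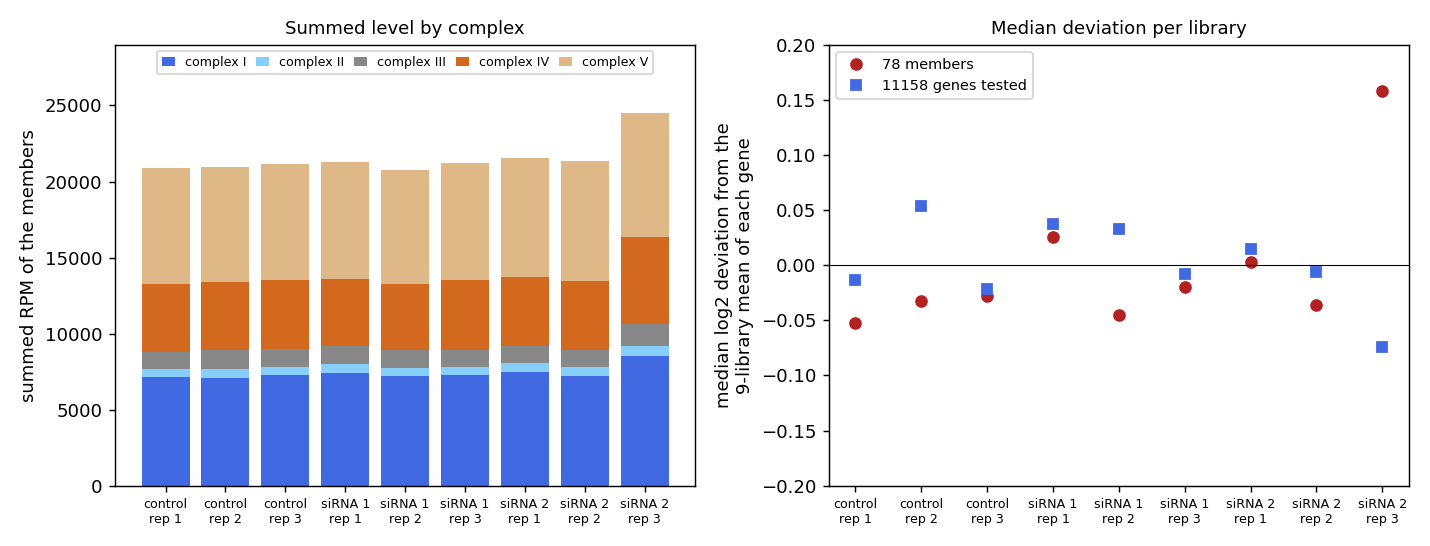
Left, summed RPM of the members in each library, stacked by complex; right, the median log2 deviation of the 78 members (circles) and of all 11158 tested genes (squares) from each gene's mean over the 9 libraries. Replicate 3 of siRNA 2 reaches 24506 RPM and has the members above (0.16) and all genes below (-0.07) their own means.

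Comparing the PVRL4 siRNAs with each other, NDUFB11 was again the member that passed the test, with siRNA 2 above siRNA 1 by 0.48 on the log2 scale (SE 0.096, 95% interval 0.27 to 0.69; limma adjusted p 0.0153). The siRNA 1 libraries are those of the control contrast, so this is not a separate sighting of their low values. The call was lost without siRNA 1 replicate 1 (0.45, adjusted p 0.0654) and in limma without a trend (adjusted p 0.0582), and held without siRNA 2 replicate 3 (0.42, adjusted p 0.0455). This 1 of 78 members is 1.28%, against 3.05% of all tested genes. With the replicate number as a block, limma called 3 members (all-gene share 9.33%): NDUFB11, NDUFA10 (-0.31, adjusted p 0.0426) and NDUFV3 (-0.36, adjusted p 0.0442). Without the block the latter had adjusted p of 0.138 and 0.236. Without the block and without siRNA 2 replicate 3, the changes were -0.35 for NDUFA10 and -0.27 for NDUFV3. NDUFA10 was at 95.6, 91.6 and 85.1 RPM with siRNA 1 and NDUFV3, an accessory subunit of the NADH-binding arm, at 48.9, 66.1 and 51.9 RPM. With siRNA 2 NDUFV3 was at 47.2, 44.3 and 37.5 RPM, so that neither gene overlapped between the siRNAs.

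At an unadjusted p below 0.05 there were 9 members in this contrast (11.5%, against 15.1% of all genes), 6 higher and 3 lower with siRNA 2. Without siRNA 2 replicate 3 there were 5 (background 13.1%), 4 of them lower. With the replicate number as a block there were 13. No share over all genes was taken at this cut in that fit, so the 13 cannot be read as a result about the members. All siRNA 2 libraries were above all siRNA 1 libraries for 8 members (background 7.04%) and below for 4 (background 12.6%). Without replicate 3 these counts were 10 (background 12.8%) and 8 (background 16.4%). Values behind NDUFB11 on the higher side were those of NDUFAB1, the mitochondrial acyl carrier protein (0.24 ± 0.095, SE), NDUFB4 (0.26 ± 0.10), UQCRB (0.38 ± 0.16) and ATP5I (0.37 ± 0.16). NDUFAB1 was 0.18, NDUFB4 0.15, UQCRB 0.18 and ATP5I 0.14 without siRNA 2 replicate 3. NDUFB4 was at 189, 187 and 183 RPM with siRNA 1 and 219, 195 and 259 RPM with siRNA 2. Further on the lower side were ATP5D (-0.25 ± 0.10), SDHD (-0.26 ± 0.15, and -0.060 without siRNA 2 replicate 2) and NDUFS8 (-0.28 ± 0.15, and -0.080 without siRNA 2 replicate 3). The median over the members was 0.058, against -0.039 over all genes, with 52 of 78 (66.7%) above 0, against 42.9% of all genes. With TMM, median-of-ratios scaling or DESeq2 it was 0.094, 0.11 or 0.12, with 62 above 0 in each. The median over all genes rose too, to -0.0049, 0.0052 or 0.0044, and these values all include siRNA 2 replicate 3. In limma without these scalings and without siRNA 2 replicate 3, the median over the members was -0.0097. This is the same sign as that of all genes (-0.010), and 38 changes (48.7%) were above 0, against 48.1% of all genes.

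Replicates with the same number resembled each other across the groups, so the difference between replicate sets was tested too. In limma's F test of the replicate number, 1 member passed (background 9.77%) and 14 had an unadjusted p below 0.05 (17.9%, background 29.1%). The member was NDUFA4L2, a relative of NDUFA4 known to be induced in hypoxia and not itself a subunit. It was at 0.477, 0.947 and 2.66 RPM in control replicates 1 to 3, at 0.869, 0.678 and 2.43 RPM with siRNA 1, and at 0.20, 1.45 and 4.87 RPM with siRNA 2. In each group replicate 3 was the highest, and counts ran from 2 to 51 reads per library. Its mean over the 6 libraries of replicates 1 and 2 was 0.771 RPM, so it passed the 1 RPM filter only through replicate 3, and its call is no support for a difference between the sets. The largest difference between replicate sets was 1.49 on the log2 scale and ranged from 0.58 to 2.66 over the alternatives run. COX7B2 likewise entered through replicate 3 (0.954 RPM in the other 6 libraries). Its difference was 0.66, with a range of 0.24 to 1.23, and it did not pass. ATP5B (0.24), NDUFB6 (0.50), COX6B1 (0.27) and the core subunit NDUFV2 (0.29) had the next lowest p and did not pass.

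The related lists held few calls, as did all genes tested. None of 44 assembly factors, 17 regulators of mitochondrial biogenesis, 18 TCA cycle genes, 18 glycolysis genes, 25 import genes or 7 further genes of oxidative phosphorylation passed limma's test in any of the 3 contrasts, where 0.851%, 0.681% and 3.05% of all genes did. Of these 129 genes, 2, 5 and 12 (1.55%, 3.88% and 9.30%, against 6.04%, 9.42% and 15.1% of all genes) had an unadjusted p below 0.05 for siRNA 1 and siRNA 2 against control and for the PVRL4 siRNAs against each other. edgeR called 0 in each, DESeq2 0, 0 and 1, and limma with the replicate block 0, 3 (IDH2, LDHB and PFKL) and 4 (GABPA, IDH2, PFKFB3 and TIMM44). Their median log2 changes with siRNA 2 against control were 0.058, 0.11, -0.028, -0.033, 0.11 and 0.11 in that order, against -0.022 over all genes. These medians include siRNA 2 replicate 3 and were not taken without it. Of 73 genes of the mitochondrial ribosome, which makes the subunits encoded by mitochondrial DNA, MRPL11 was lower with siRNA 2. It was at 75.4, 76.4 and 71.6 RPM in the control libraries, with 80.4, 74.7 and 74.8 RPM for siRNA 1 and 47.0, 55.7 and 47.9 RPM for siRNA 2. Its log2 change with siRNA 2 was -0.56 against control (limma adjusted p 0.0264) and -0.60 against siRNA 1 (0.00591). The call against control was lost without any 1 of the control libraries or siRNA 2 replicate 1 or 3 (adjusted p 0.0719 to 0.134), without a trend (0.0849) and in a fit of only the 6 libraries (0.07); that against siRNA 1 held in every alternative run. MRPL47 was higher with siRNA 2 than with siRNA 1 (0.51, limma adjusted p 0.0112), with means of 127 ± 9.49 and 89.2 ± 1.68 RPM and 116 ± 6.16 RPM in control. HSPE1, the mitochondrial co-chaperonin and 1 of 16 genes of the mitochondrial stress list, was higher in the same contrast (0.46, limma adjusted p 0.0296), a call lost without siRNA 1 replicate 2 or 3 or siRNA 2 replicate 1 or 2 (adjusted p 0.0914 to 0.12), without a trend (0.0868) and in a fit of only the 6 libraries (0.06). With the block, limma called 1, 4 and 6 genes of the mitochondrial ribosome and 0, 1 and 2 of the stress list in the 3 contrasts, where 1.85%, 3.41% and 9.33% of all genes were called.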

How the data were processed

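RNA of 9 SKBR3 libraries was measured with an Ion AmpliSeq transcriptome panel from 100 ng of total RNA, per the labels' protocols. The authors deposited RPM values per gene, with hg19 as the build per the submitters' processing notes; aligner and counter are not given in the sources used here. Steps of the RPM values were whole multiples of 1 read for 100% of values (tolerance 0.1 read), giving the library totals. No molecular identifiers were read, so floors cover counting error only.

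log2(RPM + 1) of the 11158 genes at or above a 9-library mean of 1 RPM was tested with limma 3.58.1 (R 4.3.3, trended variance, all 3 groups in 1 fit, two-sided, Benjamini-Hochberg over all genes, threshold 0.05). Changes are on that scale, which understates changes of low genes. On recovered reads, edgeR 4.0.16 called 108, 58 and 344 genes and DESeq2 1.42.0 161, 159 and 524, against 95, 76 and 340 by limma, for siRNA 1 against control, siRNA 2 against control and siRNA 2 against siRNA 1, in that order. The procedure was tested on simulated data.

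Groups and replicate numbers came from the titles. Deviations from group means correlated at 0.252 to 0.417 in the 9 same-numbered pairs of libraries and at -0.340 to -0.027 in the other 18, so the numbers were taken to pair the libraries. Members, gene lists and tests were chosen with earlier results of these data known. Named members were the called ones and, per contrast, those of smallest p until 5 higher and 5 lower were reached; for the replicate number, the 6 of smallest p. The values of 1 member are not reported here. MRPL11, MRPL47, HSPE1, the no-overlap counts and the per-library values of replicate 3 of siRNA 2 were added after the values were seen. Promoter windows came from RefSeq (GRCh38.p14), matched by gene.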

Additional observations from a re-analysis of the deposited data

Results flagged for a closer look

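NDUFB11 differed between the PVRL4 siRNAs: the log2 difference of siRNA 2 over siRNA 1 was 0.48 (limma adjusted p 0.0153), higher in 3 of 3 siRNA 2 libraries than in any siRNA 1 library. Against control its log2 change was -0.54 with siRNA 1 and -0.06 with siRNA 2. The call between the siRNAs was lost without siRNA 1 replicate 1 (limma adjusted p 0.0654) and in limma without a trend (0.0582). In that contrast 3.05% of all tested genes were called, against 1.28% of the members, and 7.04% of all genes were higher in every siRNA 2 library.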

How the results depend on the processing

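The direction of the 30 named log2 changes in the 3 contrasts held under every alternative run, except for SDHD with siRNA 2 against control. The ranges named for the replicate number cannot be negative, so they have no direction to lose. Some alternatives cannot move a limma change, only its p. They are the block, limma without a trend, a fit of only the libraries compared and leaving out a library outside the contrast. Of all 36 changes and ranges, 27 kept both their sign and their side of the threshold throughout. SDHD ranged from -0.26 to 0.045 when 1 library was left out, the latter without siRNA 2 replicate 2. Leaving out 1 library gave 0 to 1 called members for siRNA 1 against control and for siRNA 2 against siRNA 1, and 1 to 2 for the replicate number. The median change of the members then ranged from 0.024 to 0.13 for siRNA 2 against control and from -0.0097 to 0.10 for siRNA 2 against siRNA 1, in both lowest without siRNA 2 replicate 3. limma without a trend called 0 members for siRNA 1 against control and 0 for siRNA 2 against siRNA 1, and the replicate block called 3 in the latter and changed no other member's call. For the replicate number, edgeR, DESeq2, limma without a trend and quantile normalization each called 2 members. A filter at 5 RPM and the set without the rows that are not subunits called 0 there, since both leave out NDUFA4L2. Over all genes, the block called 206, 380 and 1041 genes in the 3 contrasts, and DESeq2 called 161, 159 and 524, against 95, 76 and 340. The related lists were put through the same alternatives after their values were seen. The causes of the changes between tools were not tested. Depth limits members near 1 RPM, where a library holds about 10 reads.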
